A study of Homo sapiens with 15 samples.

Results

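The genes described here are COL9A1, COL9A2, COL9A3, COL11A2, COL27A1 and FGFR3, 6 of the 60671 genes in the count table. They are known cartilage genes under the control of the transcription factor SOX9. Expression was measured by poly(A)-selected RNA sequencing in HT115, an established human colorectal cancer cell line. There were 5 groups of 3 libraries. The M379, M303 and M228 groups each expressed a V5-tagged mutant SOX9, CSOX9 expressed V5-tagged wild-type SOX9, and GFP, the control, expressed green fluorescent protein. All 5 groups received doxycycline at 0.5 µg/ml for 24 h to switch on the transgene, so no uninduced cells are compared. M303 is described by the submitters as a truncated SOX9. The sources used here do not say what M379 and M228 stand for, whether a line is 1 clone, or whether replicate libraries were grown as separate cultures. The p-values therefore measure spread between libraries only, and that spread may be technical.

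Collagen IX is a heterotrimer of the products of COL9A1, COL9A2 and COL9A3, and it decorates the surface of the thin collagen fibrils of cartilage. COL11A2 encodes a chain of collagen XI, which sits inside those fibrils together with collagen II, and COL27A1 encodes a fibril-forming collagen of developing cartilage. FGFR3 is a receptor tyrosine kinase for fibroblast growth factors that restrains the proliferation of growth plate chondrocytes. In chondrocytes SOX9 binds enhancers of such genes, often as a dimer and with SOX5 and SOX6. In the intestine SOX9 is known from the base of the crypts and from Paneth cells.

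On GRCh38, COL9A1 (ENSG00000112280) lies at chr6:70215061-70303083 on the minus strand, COL9A2 (ENSG00000049089) at chr1:40300489-40317813 on the minus strand and COL9A3 (ENSG00000092758) at chr20:62816244-62841159 on the plus strand. COL11A2 (ENSG00000204248) lies at chr6:33162681-33192499 on the minus strand, COL27A1 (ENSG00000196739) at chr9:114155537-114312511 on the plus strand and FGFR3 (ENSG00000068078) at chr4:1793293-1808872 on the plus strand. Reads were counted over the exons of each gene, whose summed length was 7240 bases for COL9A1, 4215 for COL9A2, 4841 for COL9A3, 6740 for COL11A2, 14011 for COL27A1 and 4848 for FGFR3.

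Promoters ran from 250 bases before to 50 bases after the annotated start. They were read from a RefSeq table on GRCh38.p14, which matched 5 of the 6 genes. COL9A3 had no entry there, so its promoter was not searched. The matched promoters were searched on both strands for 3 spellings of the core bound by SOX proteins. The first was ACAAAG. The second was ACAATG. The third was ACAATA. Each was counted on its own, and matches that overlap another were kept. Of 35116 promoters of the same length, 29.3% held at least 1 of them and 16.1% held ACAAAG. Of the 9 entries of the 5 genes, the COL9A2 promoter alone held a match, 1 ACAAAG that begins at position -211, with the gene's start as 0, in capitals below. That sequence is shown because COL9A2 is the collagen IX partner of COL9A3 that could be tested. The FGFR3 promoter is shown as that of the most abundant of the genes, and the upstream COL9A1 promoter as that of a gene with almost no reads. All 3 are written 5′ to 3′ on the gene's own strand.
COL9A2, chr1:40317237-40317536, minus strand: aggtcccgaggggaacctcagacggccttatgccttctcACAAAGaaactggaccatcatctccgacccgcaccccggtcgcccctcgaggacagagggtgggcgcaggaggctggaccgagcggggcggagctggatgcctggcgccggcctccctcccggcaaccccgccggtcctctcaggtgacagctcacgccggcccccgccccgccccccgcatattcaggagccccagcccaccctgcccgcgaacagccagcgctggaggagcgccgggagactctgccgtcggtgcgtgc
FGFR3, chr4:1793043-1793342, plus strand: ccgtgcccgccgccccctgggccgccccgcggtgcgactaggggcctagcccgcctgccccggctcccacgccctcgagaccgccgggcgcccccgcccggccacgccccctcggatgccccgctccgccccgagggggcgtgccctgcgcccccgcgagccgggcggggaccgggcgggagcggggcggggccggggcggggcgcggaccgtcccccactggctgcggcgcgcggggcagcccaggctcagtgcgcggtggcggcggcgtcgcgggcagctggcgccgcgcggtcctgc
COL9A1, chr6:70303035-70303334, minus strand: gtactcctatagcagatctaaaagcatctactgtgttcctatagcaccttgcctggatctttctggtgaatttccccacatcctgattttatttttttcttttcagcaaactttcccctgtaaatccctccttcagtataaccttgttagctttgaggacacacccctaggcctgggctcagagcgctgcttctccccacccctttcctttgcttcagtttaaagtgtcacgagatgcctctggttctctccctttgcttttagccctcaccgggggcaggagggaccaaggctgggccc
Their share of G and C was 71.7% for COL9A2, 86.3% for FGFR3 and 49.3% for COL9A1, beside a median of 58.7% over all promoters of the table. A match in such a window is a description of its letters only.

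Library totals ranged from 3054755 reads in GFP replicate 1 to 31704249 reads in M303 replicate 1. Values are read counts scaled to a common library size by TMM (CPM), and RPKM, which is CPM per kilobase of exon, where levels of different genes are compared. The edgeR filter on low counts kept 16160 genes, among them COL9A2, COL9A3, COL11A2 and FGFR3. COL9A1 and COL27A1 did not pass it. A gene is said to be called where its edgeR quasi-likelihood p, adjusted by the Benjamini-Hochberg method over all 16160 genes, is under 0.05. SOX9 itself averaged 2215 ± 158 CPM in M379, 3009 ± 51.6 in M303, 2105 ± 250 in M228, 213 ± 28.6 in CSOX9 and 119 ± 33.9 in GFP (SD, n = 3 each). Reads of the transgene and of the cells' own SOX9 cannot be told apart in these counts. The M379 and M228 libraries thus held similar SOX9 reads, and CSOX9 far fewer than any mutant. CSOX9 minus GFP was 0.84 ± 0.18 for SOX9 on the log2 scale and was not called (edgeR adjusted p = 0.110), with 1.31, 1.06 and 0.23 between libraries of the same number.

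In HT115 cells, COL9A3 was the only gene called between groups, of the 4 that could be tested. It was higher in M379 and M303 than in GFP, by 7.13-fold and 8.53-fold, and higher in both than in M228. M228 lay near GFP. CSOX9 stood between. FGFR3 was well expressed and uncalled throughout, COL9A2 and COL11A2 were low and uncalled, and COL9A1 and COL27A1 had a few reads or none.

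**Figure D1:**
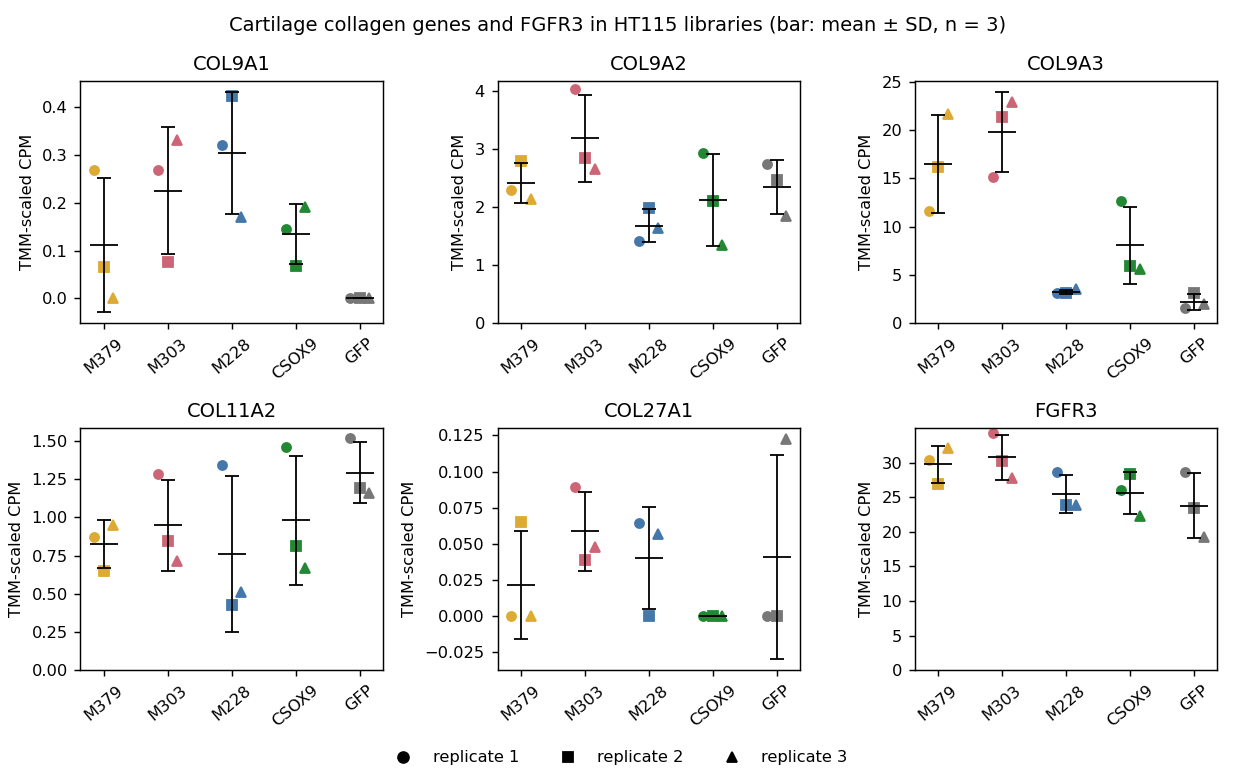
TMM-scaled CPM of the 6 genes in each library (y axes, linear, each with its own range), by group (x axis). Symbols mark the replicate number, and the bars give mean ± SD of 3 libraries. The COL9A3 libraries of M379 (11.6 to 21.7 CPM) and M303 (15.1 to 23.0 CPM) stand above all M228 libraries (3.11 to 3.50 CPM) and GFP libraries (1.52 to 3.07 CPM). The panels of COL9A1 and COL27A1 rest on 0 to 9 and 0 to 3 reads per library.

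COL9A3, which encodes the alpha 3 chain of collagen IX, had 11.6, 16.2 and 21.7 CPM in the M379 libraries and 15.1, 21.4 and 23.0 CPM in the M303 libraries. It had 3.14, 3.11 and 3.50 CPM in M228, 12.7, 5.90 and 5.64 CPM in CSOX9, and 1.52, 3.07 and 1.96 CPM in GFP. All M379 and M303 libraries were above all M228 and GFP libraries, while replicate 1 of CSOX9 was above replicate 1 of M379. In reads, this was 173, 249 and 365 for M379, 506, 555 and 484 for M303, and 49, 22 and 62 for M228. CSOX9 had 261, 87 and 59 reads and GFP 5, 36 and 32. The counts in GFP replicate 1, the shallowest library, are thus the least precise.

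The mean level of COL9A3 in RPKM was 4.09 in M303, 3.41 in M379, 1.67 in CSOX9, 0.671 in M228 and 0.451 in GFP. M303 and M379 overlapped, as did M379 and CSOX9. The difference of M379 minus M303 was -0.26 ± 0.29 on the log2 scale (standard error), with a 95% interval from -0.87 to 0.35. M228 minus GFP was 0.50 ± 0.39 with an interval from -0.33 to 1.33, although the 3 M228 libraries lay above the 3 GFP libraries. Over all 5 groups COL9A3 differed (edgeR F = 32.1, adjusted p = 0.000724), and it was the 1 called gene of the 4 tested. This F test called 0.681% of all 16160 genes.

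For M379 against GFP, COL9A3 was higher by 2.83 ± 0.36 on the log2 scale (16.5 ± 5.05 against 2.18 ± 0.797 CPM, SD, n = 3 each, edgeR adjusted p = 0.00725). With only the M379 and GFP libraries in the fit it was not called (adjusted p = 0.154, the highest of 12 alternatives, the lowest being 5.47e-23). It was 1 of 4 tested members called, beside 0.0371% of all tested genes. The 6 called genes of this comparison were SOX9, COL9A3, SPINK5, CTSV, SHROOM4 and ARHGEF37, and COL9A3 had the second lowest p after SOX9. For M303 against GFP, COL9A3 was higher by 3.09 ± 0.36 (19.8 ± 4.15 against 2.18 ± 0.797 CPM, edgeR adjusted p = 0.00223), again 1 of 4 tested members. Of all tested genes 0.118% were called there, and COL9A3 again came second after SOX9. The 2 comparisons share the GFP libraries.

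Between mutants, M379 exceeded M228 in COL9A3 by 2.33 ± 0.33 on the log2 scale (16.5 ± 5.05 against 3.25 ± 0.220 CPM, edgeR adjusted p = 0.0133). It was 1 of 4 tested members called, beside 0.0433% of all tested genes. PKIB, NTN4, EHD2, SERPINE2 and ELFN2 were also called, each lower in M379 than in M228. M303 exceeded M228 in COL9A3 by 2.59 ± 0.33 (19.8 ± 4.15 against 3.25 ± 0.220 CPM, edgeR adjusted p = 0.00702), 1 of 4 tested members beside 0.0124% of all tested genes. That share is 2 genes, and COL9A3 had the second lowest p. Leaving out any 1 M228 library ended both calls, with M303 against M228 at edgeR adjusted p of 0.0739 to 0.116 and M379 against M228 at 0.0978 to 0.118, and so did leaving out M379 replicate 2 (0.0794) or 3 (0.0992) for M379 against M228. The log2 differences stayed between 2.09 and 2.76. SOX9 reads averaged 2215 CPM in M379, 3009 in M303 and 2105 in M228. For SOX9, M379 minus M228 was 0.07 ± 0.17 and M303 minus M228 was 0.52 ± 0.17 on the log2 scale, both uncalled. The part of the SOX9 level in COL9A3 was not tested.

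**Figure D2:**
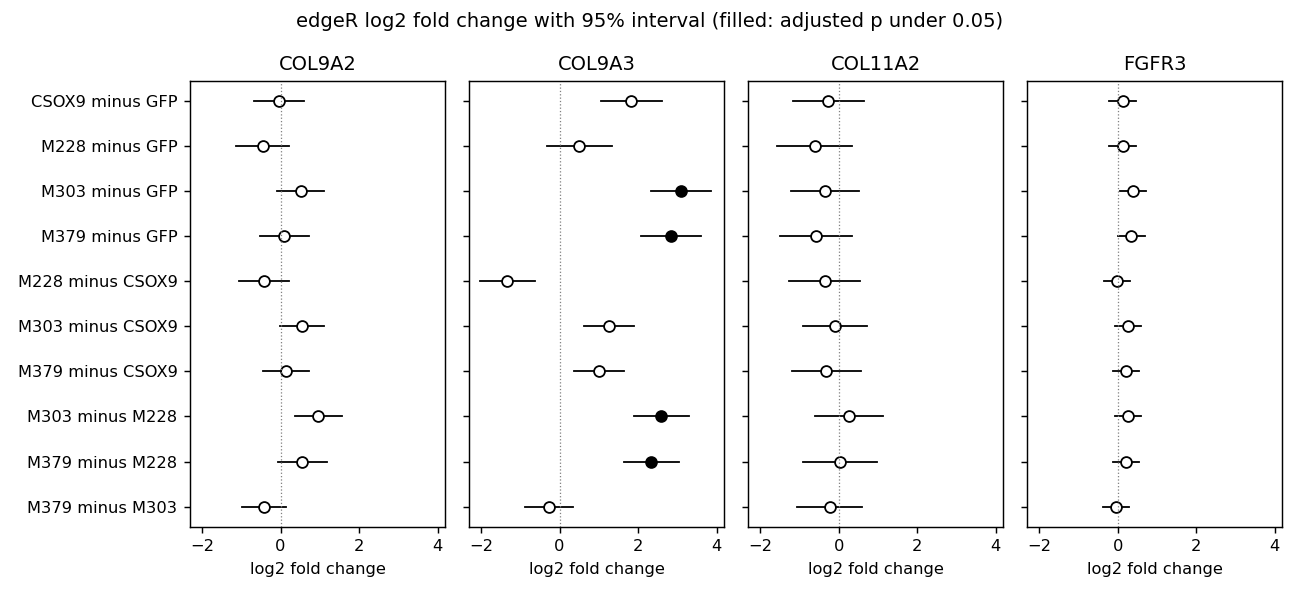
edgeR log2 fold change with its 95% interval (x axis) for each of the 10 comparisons (y axis) and each of the 4 tested genes. Filled points have an adjusted p under 0.05. The filled points are COL9A3 in M303 and M379 against GFP (3.09 and 2.83) and against M228 (2.59 and 2.33). All points of COL9A2, COL11A2 and FGFR3 are open.

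CSOX9 minus GFP was 1.83 ± 0.36 for COL9A3 on the log2 scale (8.08 ± 4.0 against 2.18 ± 0.797 CPM, SD, n = 3 each), with no overlap of the libraries and an interval from 1.05 to 2.60. It was not called (edgeR adjusted p = 0.105), and 0 of the 4 tested members were, although 1 had an unadjusted p under 0.05 and DESeq2 called COL9A3 (adjusted p = 0.00117). Over 12 alternatives the adjusted p ran from 1.70e-08, without a filter on low counts, to 0.863, with the 2 groups alone. Of all tested genes 0.0309% were called. The difference was 1.32 without CSOX9 replicate 1 and 2.16 without GFP replicate 2. Between libraries of the same replicate number, CSOX9 minus GFP was 2.96, 0.92 and 1.47.

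Against CSOX9, COL9A3 was uncalled in each mutant. M379 minus CSOX9 was 1.01 ± 0.30 (edgeR adjusted p = 0.483), M303 minus CSOX9 was 1.27 ± 0.30 (edgeR adjusted p = 0.0888) and M228 minus CSOX9 was -1.33 ± 0.33 (edgeR adjusted p = 0.109). In each, 0 of 4 tested members were called by edgeR and 1, COL9A3, had an unadjusted p under 0.05. DESeq2 called COL9A3 in M303 (adjusted p = 0.0123) and M228 (adjusted p = 0.0159) and not in M379. Of all tested genes edgeR called 0.124% in M379, 0.384% in M303 and 0.569% in M228. These differences changed with the replicate number. By number, M379 minus CSOX9 was -0.13, 1.44 and 1.92, M303 minus CSOX9 was 0.25, 1.83 and 2.00, and M228 minus CSOX9 was -1.97, -0.90 and -0.67. In CSOX9, replicate 1 was the highest library (12.7 CPM, beside 5.90 and 5.64). In M379 (11.6 CPM) and M303 (15.1 CPM), replicate 1 was the lowest. Without CSOX9 replicate 1, M303 minus CSOX9 was 1.77 and called (edgeR adjusted p = 0.0357). Over 12 alternatives the adjusted p for COL9A3 ran from 0.00309 to 1 in M379, from 2.61e-06 to 0.467 in M303 and from 1.77e-05 to 0.600 in M228.

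In M228 against GFP, 0 of the 4 tested members were called by edgeR, 0 had an unadjusted p under 0.05 and DESeq2 called 0, beside 0.241% of all tested genes called by edgeR. In M379 against M303, edgeR called 0 members and 0% of all tested genes. There, 0 members and 137 genes had an unadjusted p under 0.05. DESeq2 called 0 genes, and edgeR without a filter called 5. Over the 10 comparisons, the share of all tested genes with an unadjusted p under 0.05 ran from 0.848% in M379 minus M303 to 10.7% in CSOX9 minus GFP. The share called by DESeq2 ran from 0% in M379 minus M303 to 1.40% in M228 minus CSOX9.

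**Figure D3:**
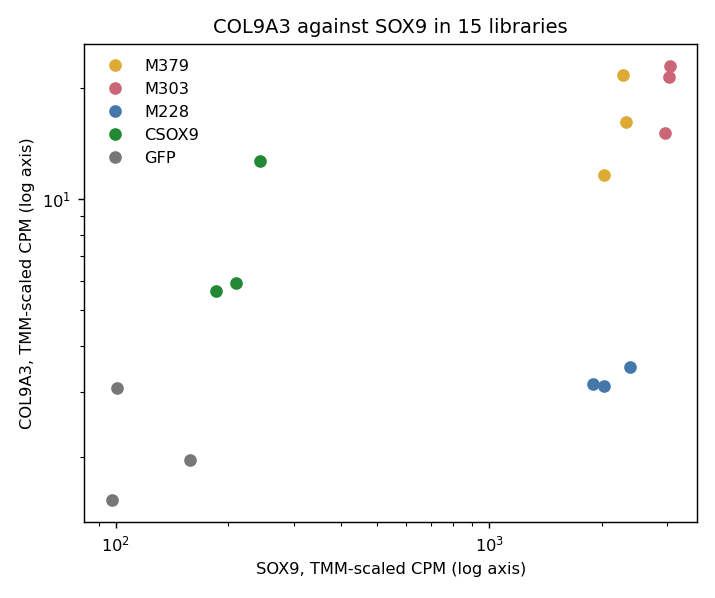
COL9A3 (y axis, log scale) against SOX9 (x axis, log scale), both in TMM-scaled CPM, with 1 point for each of 15 libraries. The M228 points have SOX9 like the M379 points (group means 2105 and 2215 CPM) and COL9A3 near the GFP points (group means 3.25 and 2.18 CPM). The CSOX9 points lie above the M228 points at a mean SOX9 of 213 CPM. The M303 group means are the highest for both genes (3009 CPM for SOX9 and 19.8 CPM for COL9A3).

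Since counting did not use strand, reads in exon bases that COL9A3 shares with another gene could be gained or lost. COL9A3 shares 155 exon bases, 3.20% of its exon length, with TCFL5 on the opposite strand. TCFL5 had 12.8 ± 1.22 CPM in M379, 13.8 ± 2.05 in M303, 12.1 ± 1.32 in M228, 12.4 ± 1.73 in CSOX9 and 12.4 ± 1.80 in GFP (SD, n = 3 each). Its log2 differences in the 10 comparisons lay between -0.11 and 0.21, and none was called. The part of reads in the shared bases was not tested.

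COL9A2, which encodes the alpha 2 chain of the same trimer, had 2.28, 2.79 and 2.14 CPM in M379 and 4.03, 2.85 and 2.66 CPM in M303. It had 1.41, 1.98 and 1.64 CPM in M228, 2.92, 2.10 and 1.34 CPM in CSOX9, and 2.74, 2.47 and 1.84 CPM in GFP. The libraries of both M379 and M303 lay above those of M228, while each mutant overlapped GFP. M303 minus M228 was 0.96 ± 0.28 on the log2 scale with an interval from 0.36 to 1.56, which was not called (edgeR adjusted p = 1). M379 minus M228 was 0.55 ± 0.30. Against GFP, COL9A2 differed by 0.10 ± 0.30 in M379, 0.51 ± 0.29 in M303, -0.45 ± 0.32 in M228 and -0.04 ± 0.30 in CSOX9, with no call. Over the 5 groups the edgeR F test gave an adjusted p of 0.707.

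The ratio of these collagen IX transcripts differed between libraries. Per length, COL9A3 over COL9A2 was 4.43, 5.04 and 8.83 in the M379 libraries and 3.26, 6.53 and 7.53 in the M303 libraries. The ratio was 1.94, 1.37 and 1.86 in M228, 3.79, 2.44 and 3.67 in CSOX9, and 0.484, 1.08 and 0.929 in GFP. M228 was above GFP and below the CSOX9, M379 and M303 libraries in this ratio. It is a description of levels per length and was not tested.

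**Figure D4:**
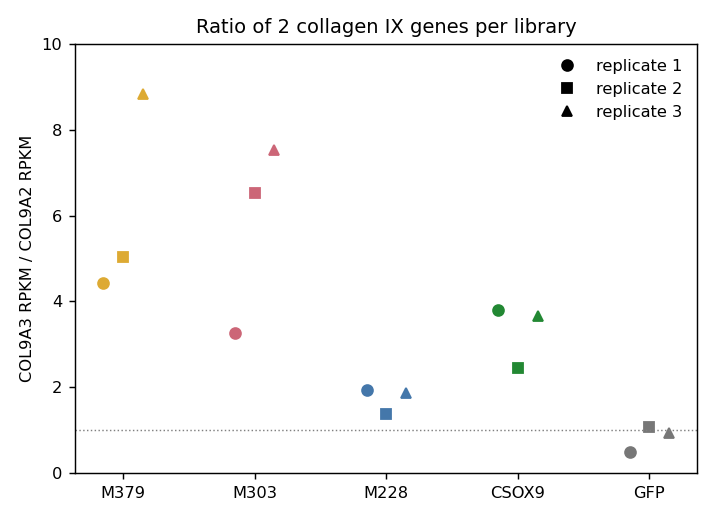
COL9A3 RPKM divided by COL9A2 RPKM (y axis, linear, from 0) in each library, by group (x axis). Symbols mark the replicate number and the dotted line marks equal levels. The M379 and M303 libraries lie between 3.26 and 8.83, the M228 libraries between 1.37 and 1.94, and the GFP libraries between 0.484 and 1.08.

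COL9A1, which encodes the alpha 1 chain of the same trimer, was near the limit of detection. It had 4, 1 and 0 reads in the M379 libraries, 9, 2 and 7 in M303, 5, 3 and 3 in M228, 3, 1 and 2 in CSOX9, and 0, 0 and 0 in GFP. Pooled over a group, that was 0.106 CPM in M379 (exact Poisson 95% interval 0.0345 to 0.248), 0.226 in M303 (0.134 to 0.357), 0.271 in M228 (0.135 to 0.485) and 0.132 in CSOX9 (0.0484 to 0.287). In GFP the same interval ran from 0 to 0.114 CPM, and 3 reads over the group would be 0.0926 CPM. The intervals of M379 and CSOX9 overlap that of GFP. Reads were found in every M303, M228 and CSOX9 library and in no GFP library. These intervals and limits take reads as independent and cover counting error at most. Mates were counted singly, so the intervals may be too narrow to set groups apart. In edgeR without the filter, COL9A1 was not called against GFP in M379 (adjusted p = 0.952), M303 (0.206), M228 (0.134) or CSOX9 (0.455). Of its exon bases 0.718% are shared with a gene on the opposite strand, ENSG00000253809.

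COL11A2, which encodes the alpha 2 chain of collagen XI, had 0.872, 0.650 and 0.951 CPM in M379, 1.28, 0.847 and 0.711 in M303, and 1.35, 0.424 and 0.509 in M228. It had 1.46, 0.814 and 0.669 CPM in CSOX9 and 1.52, 1.19 and 1.16 CPM in GFP. The 3 M379 libraries lay below the 3 GFP libraries, and the other groups overlapped GFP. Against GFP the log2 differences were -0.57 ± 0.43 in M379, -0.35 ± 0.40 in M303, -0.61 ± 0.45 in M228 and -0.26 ± 0.42 in CSOX9, and none was called. M228 minus GFP was -1.34 without M228 replicate 1 and -0.30 without M228 replicate 3, also uncalled. Between libraries of the same number, COL11A2 was lower than in GFP in each pair. By number, the difference was -0.72, -0.77 and -0.26 in M379 and -0.22, -0.44 and -0.62 in M303. It was -0.16, -1.27 and -1.03 in M228 and -0.06, -0.49 and -0.70 in CSOX9. All of these pairs reuse the same 3 GFP libraries, so they are not independent. Reads were few, with 5 in GFP replicate 1, 3 in M228 replicate 2 and 7 in CSOX9 replicate 3. With the replicate number as a block, the differences were -0.70 ± 0.32 in M379, -0.53 ± 0.30 in M303, -0.82 ± 0.34 in M228 and -0.47 ± 0.32 in CSOX9 (edgeR adjusted p = 0.430, 0.457, 0.298 and 0.426). Over the 5 groups the edgeR F test gave an adjusted p of 0.999.

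The COL11A2 libraries were also compared by replicate number. Replicate 1 was its highest library in M303, M228, CSOX9 and GFP, but not in M379. In the edgeR fit with the replicate number as a block, a contrast chosen after its values were seen, COL11A2 was higher in replicate 1 than in replicates 2 and 3 by 0.74 ± 0.20 on the log2 scale (adjusted p = 0.0209). It was 1 of 4 tested members called there, beside 17.7% of all tested genes. Such calls were common, so this one does not set COL11A2 apart. Since the contrast was chosen on these values, its p is a description only. COL9A2 (0.30 ± 0.16), FGFR3 (0.19 ± 0.09) and COL9A3 (-0.09 ± 0.23) were not called.

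COL27A1 had 0, 1 and 0 reads in M379, 3, 1 and 1 in M303, 1, 0 and 1 in M228, 0, 0 and 0 in CSOX9, and 0, 0 and 2 in GFP. No group could be told from another at this depth: the pooled level was 0.0213 CPM in M379, 0.0628 in M303, 0.0493 in M228 and 0.0617 in GFP. The 0 reads of CSOX9 have an exact Poisson upper limit of 0.0810 CPM, and 3 reads over that group would be 0.0659 CPM. That limit also takes reads as independent, although mates were counted singly.

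FGFR3 had the highest level per length of the 6 genes in every group, with mean RPKM of 6.14 in M379, 6.34 in M303, 5.25 in M228, 5.27 in CSOX9 and 4.90 in GFP. It had 30.4, 26.8 and 32.0 CPM in M379, 34.2, 30.3 and 27.7 in M303, and 28.6, 23.9 and 23.9 in M228. It had 26.1, 28.3 and 22.3 CPM in CSOX9 and 28.6, 23.4 and 19.3 in GFP. Every group overlapped GFP. In order of mean level the groups were M303, M379, CSOX9, M228 and GFP, and no neighbours in that order differed beyond their spread.

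Against GFP, FGFR3 differed on the log2 scale by 0.35 ± 0.16 in M379 (edgeR adjusted p = 0.735), 0.40 ± 0.16 in M303 (0.575), 0.13 ± 0.16 in M228 (0.818) and 0.13 ± 0.16 in CSOX9 (0.726). The 95% interval in M303 ran from 0.06 to 0.73, so a difference of 1 log2 unit lies outside it. The unadjusted edgeR p of FGFR3 was 0.0234 in M303 and 0.043 in M379. Of all tested genes, 7.80% in M303 and 6.77% in M379 had an unadjusted p under 0.05. Over the 5 groups the edgeR F test gave an adjusted p of 0.881.

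Other receptors of the same family were measured beside FGFR3. FGFR4, which signals with the co-receptor KLB in the liver, was the most abundant of FGFR1, FGFR2, FGFR3 and FGFR4, with mean RPKM of 28.8 in M379, 27.7 in M303, 19.3 in M228, 24.0 in CSOX9 and 19.8 in GFP. FGFR2, the receptor with an epithelial splice form, ranged from 0.789 in M228 to 1.83 in CSOX9, and FGFR1 from 0.0798 in CSOX9 to 0.190 in GFP. FGFR1, FGFR2 and FGFR4 were not called by edgeR. FGFR2 in M228 minus CSOX9, at -1.20 ± 0.33 on the log2 scale, was called by DESeq2 but not by edgeR (adjusted p = 0.159).

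The list of FGF receptors, ligands and adaptors held 19 genes, of which 14 were tested, and edgeR called 0 in the 10 comparisons. Between 0 and 4 of them had an unadjusted p under 0.05 in a comparison, DESeq2 made 1 call (FGFR2), and the list's median log2 difference lay between -0.12 and 0.26. Its highest levels per length were those of PTPN11, a phosphatase that relays receptor signals (56.8 RPKM, mean of the groups), the adaptor GRB2 (31.8) and the decoy-like receptor FGFRL1 (26.4). Of 11 genes induced by FGF signalling that feed back on it, all 11 were tested and edgeR made 1 call: ETV5, an ETS transcription factor, was higher in M303 than in CSOX9 by 1.28 ± 0.22 (11.3 against 4.64 CPM, adjusted p = 0.0194). DESeq2 made 3 calls among them, all of ETV5. The median log2 difference over all tested genes was between -0.01 and 0.01 in the 10 comparisons.

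Other cartilage genes were mostly silent. Of 30 cartilage matrix genes and SOX9 partners, 8 were tested and 2 had no read in any library. COL11A1 had no read, COL2A1, the main cartilage collagen gene, had 1, 4, 0, 0 and 1 reads in M379, M303, M228, CSOX9 and GFP, and ACAN, the aggrecan gene, had 1, 2, 1, 0 and 0. RUNX3, a runt-family transcription factor, was lower in M228 than in GFP by 1.47 on the log2 scale (SE 0.28, edgeR adjusted p = 0.0404). Against CSOX9 it was lower by 1.54 (SE 0.27, edgeR adjusted p = 0.0131). Low levels were not particular to M228: RUNX3 averaged 2.58 CPM in M379, 2.66 in M303 and 1.545 in M228. It averaged 4.77 CPM in CSOX9 and 4.45 in GFP. In M303 minus CSOX9, DESeq2 called RUNX3 (-0.86, adjusted p = 0.0465) and edgeR did not. SOX6, the SOX9 partner of chondrocytes, had 1.31 CPM in M228 and 5.53 CPM in CSOX9, a difference of -2.06 ± 0.41 (edgeR adjusted p = 0.0330). SOX6 averaged 1.25 CPM in M379, 1.60 in M303 and 1.03 in GFP, and its high group was CSOX9, with libraries from 3.06 to 9.05 CPM. These were the 3 edgeR calls of the list in 10 comparisons. DESeq2 made 7, all of SOX6 or RUNX3, and its median log2 difference lay between -0.22 and 0.22.

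Of 14 other fibril-forming and fibril-associated collagen genes 6 were tested, and edgeR called 0 in the 10 comparisons. Between 0 and 2 had an unadjusted p under 0.05 in a comparison, and DESeq2 made 1 call, of COL3A1 in M228 minus CSOX9. The highest were COL16A1 (3.67 RPKM), COL12A1 (0.804) and COL5A2 (0.425). Of 29 genes for collagen-modifying enzymes and chaperones 24 were tested and edgeR called 0, with 0 to 4 at an unadjusted p under 0.05 and 2 DESeq2 calls, P3H3 in M228 minus GFP and PCOLCE2 in M228 minus CSOX9. The most abundant were P4HB (125 RPKM), a subunit of prolyl 4-hydroxylase, PPIB (76.5) and PLOD3 (53.3). Of 7 collagen receptor genes 6 were tested, and edgeR called 0, with 0 to 2 at an unadjusted p under 0.05 and 0 DESeq2 calls. ITGB1 (44.1 RPKM), DDR1 (29.2) and ITGA2 (11) led them. The median log2 differences lay between -0.24 and 0.24 for the collagens, -0.16 and 0.17 for the enzymes and -0.15 and 0.37 for the receptors.

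Markers bore on what cells the reads came from. The 11 colorectal epithelium markers had reads in every library, with a summed level of 13770 to 19010 CPM in M379, 14250 to 18770 in M303, 15950 to 22120 in M228, 13850 to 18380 in CSOX9 and 11680 to 26410 in GFP. The 8 chondrocyte markers summed to 0.260 to 0.604 CPM in M379, 0.385 to 0.746 in M303, 0.320 to 0.565 in M228, 0.204 to 0.389 in CSOX9 and 0.0852 to 0.306 in GFP, and none passed the filter. The 8 fibroblast markers, 3 of them tested, summed to 4.04 to 4.87 CPM in M379, 4.0 to 5.60 in M303, 5.37 to 6.28 in M228, 3.92 to 4.89 in CSOX9 and 3.35 to 3.83 in GFP. The chondrocyte sums of M303 and M228 lay above those of GFP, and those of M303 and M228 overlapped each other. Every library's fibroblast sum outside GFP lay above the GFP sums, with the highest value in M228. The largest parts were KRT8 (group means 7688 to 9526 CPM) and KRT18 (4116 to 5334) of the epithelial sums, and COL1A1 (2.72 to 3.67) of the fibroblast sums. Of the 11 epithelial markers edgeR called 0. DESeq2 called KRT20 in CSOX9 minus GFP (0.77, adjusted p = 0.00905), M303 minus CSOX9 (-0.75, 0.00623) and M379 minus CSOX9 (-0.78, 0.00758). The part of these markers in the results was not tested. In such bulk samples, fewer cells that express a gene and less of its RNA per cell cannot be told apart.

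Across the 15 libraries, the 4 tested members did not move as 1 group. Pearson's r of log2 CPM was 0.60 for COL9A3 with FGFR3, 0.54 for COL9A2 with FGFR3, 0.49 for COL9A2 with COL9A3 and 0.33 for COL9A2 with COL11A2. It was 0.24 for COL11A2 with FGFR3 and -0.13 for COL9A3 with COL11A2. After the group means were taken away, the highest was COL11A2 with FGFR3 at 0.67 and COL9A3 with FGFR3 was -0.15. The points share libraries, depth and replicate numbers, and these values are descriptions.

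Among 12235 candidate genes, the most like COL9A3 in level over the 15 libraries were MEX3D (r = 0.91), IGFBP2 (0.89) and MANEAL (0.88). In the deviations from the group means they were WRNIP1 (0.92), MFGE8 (0.89) and PPP2R2D (0.82). For COL9A2 the 3 were ENKD1, PABPC1P4 and TCFL5 in level (0.77, 0.77 and 0.74) and NCK2, DUOX1 and MATN2 in deviations (0.92, 0.92 and 0.90). PABPC1P4 is a pseudogene that shares sequence with its parent, so its counts are uncertain. For COL11A2 they were CTIF, GLUL and MTARC2 in level (0.87, 0.84 and 0.84) and MTARC2, MXRA7 and CRB2 in deviations (0.94, 0.89 and 0.88). For FGFR3 they were SEMA4B, GYG2 and FBXL2 in level (0.85, 0.84 and 0.83) and MEF2D, DNMT3A and HOXB13 in deviations (0.91, 0.89 and 0.89). No gene was among the 3 nearest of more than 1 member.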

How the data were processed

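Poly(A) RNA of 15 HT115 libraries was sequenced as 150-bp paired ends. The submitters' processing notes name STAR 2.7.0a and the build hg38. The unit is the raw read count per gene, which the authors obtained with featureCounts 2.0.1 on an Ensembl 101 gene file for GRCh38, per the file headers. Neither a strand nor a paired-end option appears in that command, so mates were counted singly, which makes counts look more precise than fragments would, and strands were counted together. A deposited normalized table was not used here.

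Identifiers were matched to a symbol for 42020 of 60671 genes. In R 4.3.3, edgeR 4.0.16 (filterByExpr, TMM, quasi-likelihood tests with default options) was fitted once to all 15 libraries with a mean per group, which leaves 10 residual degrees of freedom. All tests are two-sided. The Benjamini-Hochberg adjustment ran over 16160 genes within each of 10 contrasts and for the F test among groups, and calls have an adjusted p under 0.05. The standard error is the absolute log2 fold change divided by the root of F. The fit was tested on simulated data. Library totals of 3054755 to 31704249 reads put the value of 3 reads at 0.982 CPM in the shallowest library, and this covers counting error only. The median within-group dispersion was 0.0976 in GFP and 0.0104 to 0.0233 in the other groups. The main fit uses 1 spread per gene for all 5 groups, so standard errors and p-values of comparisons with GFP may be too small. Libraries of 1 group differed by more than sampling noise in every pair.

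The members, the gene lists and the tests were chosen with earlier results of these data known, so no pattern here is independent support. Named beside the members are SOX9, called genes of each list (at most 4 per list and contrast), otherwise the 3 most abundant of a list, and the 3 genes most like each tested member, with a mean log2 CPM of at least 1. Genes from called sets of 7 or fewer (some are not reported here), the FGFR3 paralogs, TCFL5, COL2A1, ACAN and COL11A1 and the genes called by DESeq2 alone were named after their values were seen. Alternatives were RLE scaling, DESeq2 1.42.0, no filter, the 2 groups alone, a replicate block and each library left out. A fit on replicates 2 and 3 alone and the contrast of replicate 1 with replicates 2 and 3 were added after the data were seen. Equal replicate numbers were marked as a possible pairing where the deviations of every same-numbered pair correlated above 0.1. This held for the mutants against GFP, M303 against CSOX9 (lowest 0.101) and between mutants. The main fit did not use these numbers, and the replicate block was an alternative in every comparison. The labels do not say what a number marks. The series text speaks of duplicates and the sample labels of triplicates, and the labels were followed.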

Additional observations from a re-analysis of the deposited data

How the results depend on the processing

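COL9A3 kept its direction in all 12 alternatives of each of the 10 comparisons. In M303 minus GFP it was called in all 12, with log2 differences of 2.92 to 3.40, and in M379 minus GFP in 11, the exception being the 2 groups alone (2.83, edgeR adjusted p = 0.154, 0 members called). The count of called members was 1 instead of 0 without a filter in CSOX9 minus GFP, M228 minus CSOX9, M303 minus CSOX9 and M379 minus CSOX9, by DESeq2 in the first 3 of these, with the 2 groups alone in M228 minus CSOX9 and with replicates 2 and 3 alone in M303 minus CSOX9 (1.93, edgeR adjusted p = 0.0284). In each of these the called member was COL9A3. With 1 library left out the count ranged from 0 to 1 in M303 minus CSOX9, M303 minus M228 and M379 minus M228. The other tested members were called in 0 of 360 alternative fits (lowest adjusted p = 0.234). The cause of these changes was not tested.

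With the replicate block COL9A3 kept each call, at edgeR adjusted p of 0.00284 in M303 minus GFP, 0.0155 in M379 minus GFP, 0.0109 in M303 minus M228 and 0.0119 in M379 minus M228. The block gave 1 called member in each of these 4 comparisons and 0 in the other 6, and 1 among the 5 groups.

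Uncalled values near 0 changed sign. With replicates 2 and 3 alone these were COL9A2 in M228 minus CSOX9 (0.0028), COL11A2 in M303 minus CSOX9 (0.0512), M379 minus CSOX9 (0.0909) and M379 minus M303 (0.0397), and FGFR3 in M379 minus M303 (0.0236). With 1 library left out the ranges that crossed 0 are given next. For COL9A2 they were -0.36 to 0.17 in CSOX9 minus GFP, -0.089 to 0.20 in M379 minus GFP, -0.075 to 0.46 in M379 minus CSOX9. For FGFR3 they were -0.0053 to 0.26 in CSOX9 minus GFP, -0.0093 to 0.26 in M228 minus GFP, -0.099 to 0.075 in M228 minus CSOX9, -0.12 to 0.038 in M379 minus M303. For COL11A2 they were -1.09 to 0.10 in M228 minus CSOX9, -0.39 to 0.36 in M303 minus CSOX9, -0.49 to 0.14 in M379 minus CSOX9, -0.045 to 1.00 in M303 minus M228, -0.27 to 0.77 in M379 minus M228, -0.38 to 0.077 in M379 minus M303. In total 30 of 480 alternative values of single genes changed sign, 10 became called and 9 lost a call.

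Counts of called genes, which set the background shares, moved by over 1.5 times with the settings. The count reported, its range over the settings other than leaving out 1 library, and its range with 1 library left out were 5, 0 to 180 and 0 to 38 for CSOX9 minus GFP; 39, 3 to 282 and 15 to 143 for M228 minus GFP; 19, 2 to 212 and 4 to 31 for M303 minus GFP; 6, 1 to 74 and 2 to 12 for M379 minus GFP; 92, 21 to 320 and 27 to 42 for M228 minus CSOX9; 62, 7 to 273 and 9 to 33 for M303 minus CSOX9; 20, 1 to 165 and 1 to 5 for M379 minus CSOX9; 2, 1 to 47 and 1 to 2 for M303 minus M228; 7, 1 to 48 and 0 to 4 for M379 minus M228; 0, 0 to 5 and 0 to 0 for M379 minus M303; 110, 16 to 596 and 23 to 250 among the 5 groups. Reads limit COL9A1 and COL27A1, and GFP replicate 1 holds 5 COL9A3 reads.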
